A study of Homo sapiens with 8 samples.

Results

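Myosin light chains are small proteins that wrap around the neck of the myosin heavy chain, and the 10 genes described here encode 9 of these chains and MYLK, the kinase that phosphorylates the regulatory kind. The genes were taken from a fixed list (MYL1, MYL4, MYL5, MYL6, MYL6B, MYL9, MYL11, MYL12A, MYL12B and MYLK), and all 10 were found among the 58302 genes counted in each library. MYL11 was formerly called MYLPF and carries that name in GENCODE 29. RNA came from RD cells, an established human rhabdomyosarcoma line, which is a tumour of the skeletal muscle lineage. The control group carried a scrambled short hairpin RNA and the shPROX1 group a hairpin against PROX1, a homeobox transcription factor. No other treatment is named, and all libraries come from the same line grown in the same medium. There were 4 libraries a group, described as biological replicates, and p-values measure the spread between these libraries. The comparison asks how light chain transcripts differed once PROX1 was silenced.

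Each myosin head binds an essential and a regulatory light chain. Sarcomeric myosin of skeletal muscle uses chains made by muscle genes, whereas the non-muscle and smooth muscle myosins of stress fibres and the cell cortex use others. In non-muscle and smooth muscle cells the regulatory chain is the switch: a calcium signal activates MYLK, which phosphorylates it and lets myosin pull on actin, and myosin phosphatase removes the phosphate. Among the essential chains, MYL1 is the chain of fast skeletal muscle, MYL4 that of embryonic muscle and adult atrium, MYL6B a chain of slow skeletal muscle and non-muscle cells, and MYL6 the main chain of smooth muscle and non-muscle cells. Among the regulatory chains, MYL11 is the fast skeletal form, MYL9 the smooth muscle form, and MYL12A and MYL12B are the non-muscle forms; MYL5 is a less studied member of the same class.

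The starts of 4 regulatory chain coding sequences are shown because they mark both the site on which MYLK acts and the likeness that bears on how reads were assigned. The sequences are the opening 90 bases of each principal coding transcript in GENCODE 29, 5′ to 3′, and capitals mark the threonine and serine codons that the kinase phosphorylates, found as a threonine and a serine codon after an arginine and an alanine codon.
MYL12A: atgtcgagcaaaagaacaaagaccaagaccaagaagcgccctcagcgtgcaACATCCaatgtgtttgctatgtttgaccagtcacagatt
MYL12B: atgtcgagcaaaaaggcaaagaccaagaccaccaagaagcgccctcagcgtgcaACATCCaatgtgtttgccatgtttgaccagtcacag
MYL9: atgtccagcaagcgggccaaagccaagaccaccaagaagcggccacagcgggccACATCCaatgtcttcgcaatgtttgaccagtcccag
MYL11: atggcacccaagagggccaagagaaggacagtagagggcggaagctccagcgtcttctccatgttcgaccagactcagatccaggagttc
Capitals fall on codons 18 and 19 of MYL12A and on codons 19 and 20 of MYL12B and MYL9, counted from the start codon. MYL11 held no such run of 4 codons in these bases. Only that run was sought, so the absence of capitals does not show that MYL11 lacks a phosphorylated site. Over their whole coding sequences MYL12A and MYL12B were identical at 95.2% of aligned positions. For MYL9 against MYL12B this was 80.8%, and for MYL11 against MYL12B 60.4%. Despite this likeness, 9.41% of the 1180 windows of 50 bases in the principal MYL12A transcript occurred exactly in a transcript of another gene, and 9.42% of 1200 windows in MYL12B. For MYL6 the share was 4.81%, all of it in transcripts of its neighbour MYL6B, and for MYLK it was 1.52%. None of the windows of MYL1, MYL4, MYL5, MYL6B, MYL9 or MYL11 occurred elsewhere. The read length is not given in the sources used here. These shares describe the sequences and not the reads that were lost or shared.

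The libraries held 3747090 to 4865161 counts. PROX1, the targeted gene, was lower in every shPROX1 library (7.68 to 10.3 CPM, the count scaled by the library's total) than in any control library (16.3 to 21.6 CPM), 2.10-fold lower in the fit (exact permutation test, two-sided, p = 0.0286, which is the lower limit for 70 arrangements). Of 6 markers of the skeletal muscle lineage all were tested, 0 rose and 4 fell. The share that rose or fell was 66.7%, against 35.2% over all tested genes. The summed level of the 6 markers was 1399 to 1451 CPM over control and 1150 to 1241 CPM over shPROX1 libraries. MYOG, a factor of muscle differentiation, fell from 121 ± 5.27 to 47.8 ± 2.69 CPM (mean ± SD, n = 4, as throughout; log2 change -1.32 ± 0.06, SE). MYH3 (log2 change -0.94), PAX7 (-0.41) and DES (-0.18) fell as well. MYOD1, at 71.2 ± 7.72 CPM in control and 72.2 ± 4.49 CPM in shPROX1, and CHRNA1 did not pass. The part of these markers in the light chain results was not tested. Of 6 cardiac markers, 4 had 0 counts in all 8 libraries, among them the cardiac light chains MYL2, MYL3 and MYL7. A count of 0 allows up to 0.617 to 0.801 CPM depending on the library, for counting error only. Of 4 endothelial markers, CDH5 had 0 counts and TEK was at 44.6 ± 5.74 CPM in control and 41.9 ± 2.04 CPM in shPROX1. PECAM1 (9 counts summed over control and 8 over shPROX1) and VWF (9 and 4) were too low to be tested.

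After silencing the light chains of skeletal muscle were lower and some chains of smooth and non-muscle myosin were higher. MYL1, MYL4, MYL6B and MYL11 fell, MYL6 and MYL9 rose, and MYL5, MYL12A, MYL12B and MYLK did not pass the test. A gene is called risen or fallen where edgeR's quasi-likelihood test gave a Benjamini-Hochberg adjusted p under 0.05 over all 12392 genes tested. That made 6 called genes of 10, against 35.2% of all tested genes, with 2 higher (17.3% over all genes) and 4 lower (17.9%). The 4 control and 4 shPROX1 libraries did not overlap in CPM for the same 6 genes, 2 above and 4 below control, against 32.3% of all tested genes (14.4% above and 17.9% below). The genes were listed with earlier results of these data known, so no test is given for these counts. All 10 genes passed the filter on low counts, 9 of them in every library. MYLK passed it through 1 control and 3 shPROX1 libraries. The median log2 change of the 10 genes was -0.02 and that of all tested genes -0.0066. In bulk RNA, fewer cells of a kind and less RNA per cell cannot be told apart.

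**Figure D1:**
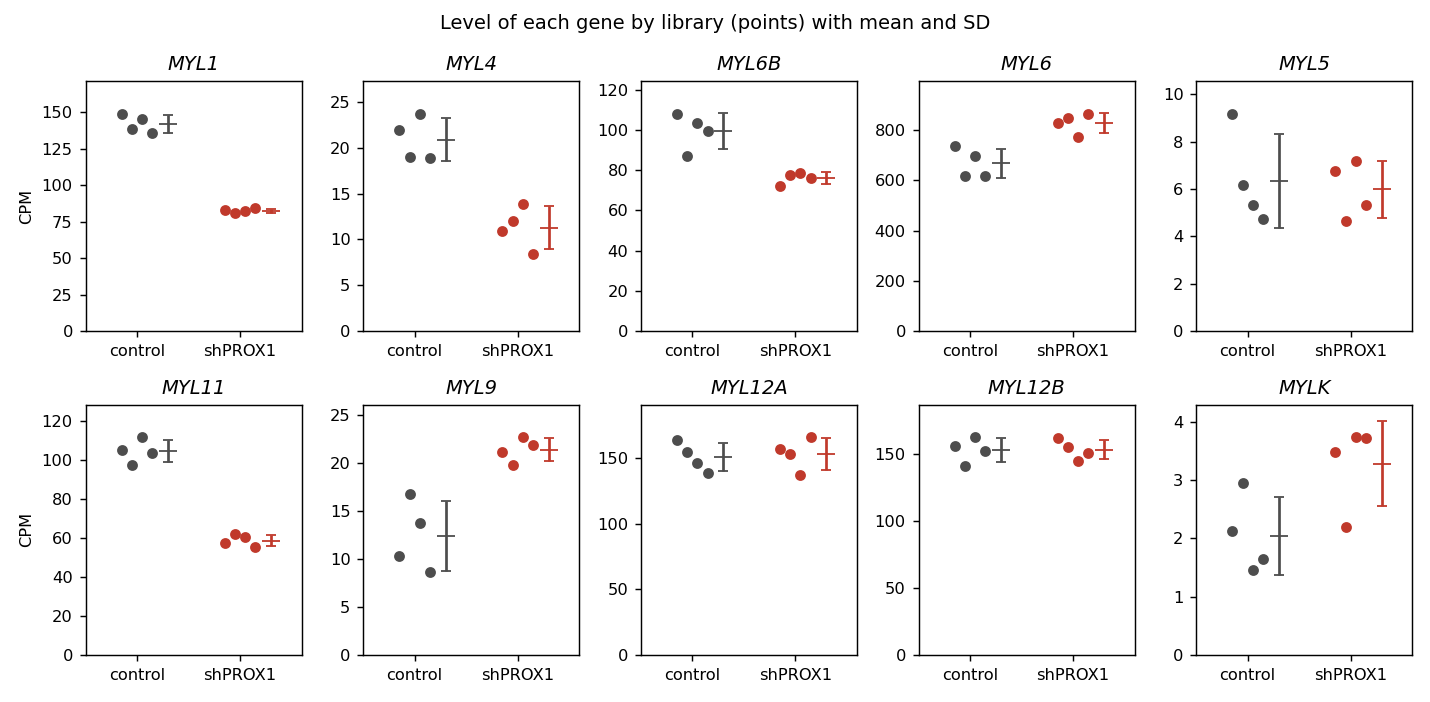
Level of each of the 10 genes in CPM (vertical axes, each from 0) in the 4 control and 4 shPROX1 libraries (points), with the mean and SD of each group beside them. In MYL1 the control points lie between 135 and 149 and the shPROX1 points between 80.7 and 84.1; MYL12A and MYL12B overlap.

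Among essential chains, MYL1, the fast skeletal form, fell with no overlap between the groups. MYL1 (chromosome 2, 210290150 to 210315190, minus strand, GRCh38) stood at 149, 138, 145 and 135 CPM in control replicates 1 to 4 and at 82.6, 80.7, 81.9 and 84.1 CPM in shPROX1 replicates 1 to 4. Every shPROX1 library was below every control library, and the 4 shPROX1 values spanned a narrow range. The fitted level was 1.69-fold lower (log2 change -0.76 ± 0.06, SE, edgeR adjusted p = 2.19e-10).

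MYL1 has a pair of alternative starts, the outer giving the long form of the protein and the inner the short form, and counts per gene do not separate them. The 250 bases before each RefSeq start (GRCh38.p14, minus strand, 5′ to 3′) are shown because MYL1 was among the genes that fell together. The motifs searched on both strands were CANNTG (the E-box bound by myogenic factors), the MEF2 site and the CArG box bound by SRF, and capitals mark their matches. CAGCTG, which is one form of CANNTG, and TATAAA, the core of a TATA box, were searched too and are not in capitals.
MYL1 outer start, chr2:210315175-210315424: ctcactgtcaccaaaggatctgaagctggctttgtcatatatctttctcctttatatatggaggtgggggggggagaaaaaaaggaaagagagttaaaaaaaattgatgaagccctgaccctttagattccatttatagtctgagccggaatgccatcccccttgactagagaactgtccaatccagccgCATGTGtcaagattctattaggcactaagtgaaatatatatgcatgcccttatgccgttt
MYL1 inner start, chr2:210303616-210303865: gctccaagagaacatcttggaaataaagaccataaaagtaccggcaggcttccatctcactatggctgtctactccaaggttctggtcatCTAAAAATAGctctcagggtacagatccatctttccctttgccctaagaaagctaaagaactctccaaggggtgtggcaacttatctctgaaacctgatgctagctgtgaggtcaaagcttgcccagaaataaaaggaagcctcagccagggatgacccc
The outer window held 1 match to CANNTG and 2 to TATAAA, and the inner window 1 match to the MEF2 site and 0 to TATAAA. Both TATAAA matches read on the strand opposite to MYL1 and lay farther from the start than the CANNTG match. Their presence therefore does not show a TATA box for the outer start. Of 35116 promoter windows of this length in the table, 61.8% held CANNTG, 14.0% CAGCTG, 10.7% TATAAA, 2.80% a MEF2 site and 1.16% a CArG box. Of the 10 genes, 8 had windows in the table, 14 in all, and MYL4 and MYL9 had none. A CArG box was found in 1 of them, before an inner start of MYLK, and MEF2 sites in the inner MYL1 window and in 1 of 3 MYL12A windows. That MYLK window was the only window of this gene, so bases before its outer end were not searched. For MYLK too, counts per gene do not separate transcripts of different starts. CAGCTG was found only in the inner MYL11 window, which held 2 matches. These matches are descriptions of letters, not of bound sites.

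MYL4 and MYL6B, the other essential chains of muscle, also fell, to different extents. MYL4 (chromosome 17, 47200446 to 47223679, plus strand), the embryonic and atrial chain, was at 21.9, 19.0, 23.7 and 18.9 CPM in control and at 10.9, 12.0, 13.9 and 8.37 CPM in shPROX1. The groups did not overlap (log2 change -0.87 ± 0.14, edgeR adjusted p = 5.40e-05), and shPROX1 replicate 4 was the lowest of the shPROX1 libraries. MYL4 counts per 100 MYL1 counts were 14.7 ± 1.16 in control and 13.7 ± 2.95 in shPROX1, with overlapping libraries. MYL6B (chromosome 12, 56152256 to 56159647, plus strand), the slow muscle and non-muscle chain, was at 108, 87.0, 104 and 99.3 CPM in control and 72.2, 77.8, 78.5 and 76.0 CPM in shPROX1. Its fall was the smallest of the 4, 1.29-fold (log2 change -0.36 ± 0.07, edgeR adjusted p = 1.59e-04).

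MYL6 rose while its neighbour MYL6B fell. MYL6 (chromosome 12, 56158161 to 56163496, plus strand) starts inside the annotated span of MYL6B, and both lie on the same strand. It was the most abundant of the 10 genes, at 735, 618, 699 and 618 CPM in control and 828, 847, 772 and 865 CPM in shPROX1. Control replicates 1 and 3 were higher than replicates 2 and 4, yet all stayed below the lowest shPROX1 library (1.26-fold higher, log2 change 0.33 ± 0.05, edgeR adjusted p = 3.67e-05). MYL6B counts per 100 MYL6 counts were 14.7, 14.1, 14.8 and 16.1 in control and 8.72, 9.18, 10.2 and 8.79 in shPROX1, with no overlap. Exons of MYL6B covered 1.93% of MYL6 exon bases on the same strand, and exons on the opposite strand covered 12.0%, among them those of SMARCC2, which fell (log2 change -0.24, edgeR adjusted p = 0.00346). Whether the counting used strand is not given in the sources used here. The 5 MYL6 pseudogenes matched by name had 0 counts in all libraries.

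MYL1 counts per 100 MYL6 counts set the fast muscle chain against the non-muscle chain within each library. Library size drops out of this ratio, but the lengths of the 2 genes do not, so it compares libraries and is no measure of how many transcripts of each there were. This ratio was 20.3, 22.4, 20.8 and 21.9 in control and 9.98, 9.53, 10.6 and 9.73 in shPROX1. The groups were far apart relative to the spread within them.

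Among regulatory chains the fast skeletal form fell. MYL11 (chromosome 16, 30370934 to 30377991, plus strand) was at 105, 97.4, 112 and 104 CPM in control and at 57.3, 61.9, 60.3 and 55.1 CPM in shPROX1. No library of either group came near the other group (1.75-fold lower, log2 change -0.81 ± 0.06, edgeR adjusted p = 7.96e-10). MYL11 and MYL1, the regulatory and essential chains of the same fast myosin, kept a similar proportion: MYL1 counts per 100 MYL11 counts were 136 ± 6.37 in control and 141 ± 9.78 in shPROX1, with overlapping libraries. The RefSeq windows for MYL11 lie before starts upstream of its principal coding transcript and are not shown. The inner of these windows held 2 matches to CAGCTG and the outer 0. Whether these matches bear on the fall of MYL11 was not tested.

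MYL9, the smooth muscle form, rose from a low level. MYL9 (chromosome 20, 36541484 to 36551447, plus strand) was at 10.4, 16.8, 13.8 and 8.63 CPM in control and 21.2, 19.8, 22.7 and 21.9 CPM in shPROX1. Control libraries varied more than the shPROX1 libraries, and the highest, replicate 2, was still below all of these (1.77-fold higher, log2 change 0.83 ± 0.15, edgeR adjusted p = 2.14e-04). The summed level of 6 smooth muscle markers (ACTA2, CNN1, MYH11, TAGLN, SMTN and LMOD1) moved with it, from 27.5 to 36.3 CPM over control libraries to 45.4 to 50.9 CPM over shPROX1 libraries. Of the 3 markers tested, TAGLN (log2 change 1.24 ± 0.17) and SMTN (0.38 ± 0.11) rose, and CNN1 (0.32 ± 0.30) did not pass. That is 66.7% called, against 35.2% over all tested genes. The defining markers were at or near 0: ACTA2 summed to 0 counts in control and 9 in shPROX1, and MYH11, the smooth muscle heavy chain, to 1 and 4. LMOD1, too low to be tested, had 16 counts in control and 4 in shPROX1, the other direction, and TAGLN and SMTN made up most of the summed level. The part of these markers in the MYL9 result was not tested.

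The non-muscle regulatory chains were abundant and differed by little. MYL12A (chromosome 18, 3247481 to 3256236, plus strand) was at 164, 155, 146 and 139 CPM in control and 157, 153, 137 and 166 CPM in shPROX1. MYL12B, its neighbour (3261479 to 3278431, plus strand), was at 156, 141, 163 and 153 CPM and at 162, 155, 145 and 151 CPM. For both genes the range of one group lay largely within that of the other. Their log2 changes were 0.05 (95% interval -0.08 to 0.18, edgeR adjusted p = 0.603) for MYL12A and 0.03 (95% interval -0.09 to 0.14, edgeR adjusted p = 0.764) for MYL12B. With the counts of this near-identical pair summed and tested as 1 gene, which is free of how reads were split between them, the log2 change was 0.04 (95% interval -0.07 to 0.14, edgeR adjusted p = 0.643). None of these intervals reached a change as large as that of MYL6. MYL5 (chromosome 4, 673580 to 682033, plus strand) was low, at 4.73 to 9.19 CPM in control and 4.65 to 7.21 CPM in shPROX1, and its log2 change of -0.06 had a wide interval (-0.53 to 0.42, edgeR adjusted p = 0.876). Opposite-strand exons of ATP5ME and SLC49A3 covered 16.7% of its exon bases.

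MYLK was the least abundant of the 10 genes, and its difference was not detectable at this depth by the adjusted test. MYLK (chromosome 3, 123610049 to 123884331, minus strand) had 9, 12, 6 and 8 counts in control and 15, 9, 14 and 16 counts in shPROX1, which is 2.12, 2.96, 1.45 and 1.64 CPM against 3.49, 2.20, 3.74 and 3.72 CPM. The groups overlapped through control replicate 2 and shPROX1 replicate 2. The log2 change was 0.71 ± 0.30 (95% interval 0.09 to 1.34, edgeR adjusted p = 0.0714). It passed without control replicate 2 (0.93, edgeR adjusted p = 0.0351) and without shPROX1 replicate 2 (0.86, edgeR adjusted p = 0.0410), and over all 19 alternatives its adjusted p ran from 0.0351 to 1.0. The antisense gene MYLK-AS1 summed to 18 counts in control and 11 in shPROX1, and MYLK-AS2 to 0. The other light chain kinases were lower still and untested: MYLK2, of skeletal muscle, had 10 and 8 counts, MYLK3, of cardiac muscle, 13 and 3, and MYLK4 22 and 37, each summed over control and then shPROX1.

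**Figure D2:**
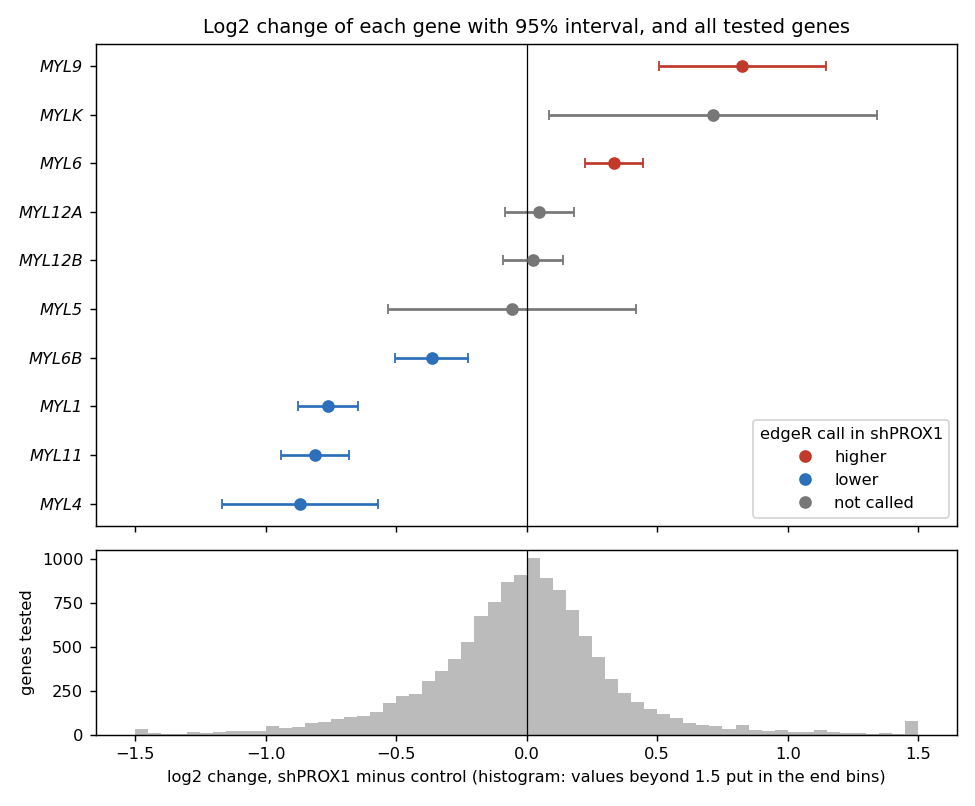
Upper panel: log2 change of each gene, shPROX1 minus control (horizontal axis), with its 95% interval from the edgeR fit, coloured by call; lower panel: the number of all tested genes per bin of log2 change. MYL4, MYL11, MYL1 and MYL6B lie below 0, MYL6 and MYL9 above 0, and the interval of MYLK is the widest.

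Levels of different genes compare only per length, so CPM was divided by the kilobases of all annotated exons merged. In control the order was MYL6 (145 ± 12.8 CPM per kb), MYL1 (106 ± 4.64), MYL11 (93.3 ± 5.18), MYL12B (79.3 ± 4.61), MYL12A (46.6 ± 3.30), MYL6B (30.5 ± 2.78), MYL4 (12.8 ± 1.43), MYL9 (4.39 ± 1.28), MYL5 (1.48 ± 0.460) and MYLK (0.0922 ± 0.0303). No neighbours in that order overlapped between libraries. In shPROX1, MYL12B (79.3 ± 3.63 CPM per kb) stood above MYL1 (61.4 ± 1.06) and MYL11 (52.4 ± 2.73), and MYL9 (7.58 ± 0.429) overlapped MYL4 (6.90 ± 1.40). MYL11 and MYL12A (47.3 ± 3.71) overlapped as well. By the length of the longest coding transcript the control order opened with MYL6 (464 ± 41.0 CPM per kb), MYL11 (153 ± 8.50) and MYL1 (133 ± 5.85). MYL1, MYL12A (123 ± 8.72) and MYL12B (123 ± 7.13) were then not separated by their library ranges, nor were MYL9 and MYL5. In shPROX1 by that length, MYL4 (12.5 ± 2.53 CPM per kb) lay above MYL9 (7.58 ± 0.429) with no overlap. MYL12A (125 ± 9.80) likewise lay above MYL11 (86.0 ± 4.48), so both overlaps seen in shPROX1 by exon length depend on the length used.

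The make-up of each light chain class followed from these levels. MYL1 made up 36.05 ± 1.08% of the essential chain transcripts per kb of exons in control and 22.6 ± 0.634% in shPROX1, and MYL6 49.2 ± 0.859% and 66.2 ± 1.40%. By the longest coding transcript the shares were 19.2 ± 0.717% and 10.7 ± 0.373% for MYL1 and 66.6 ± 0.711% and 79.5 ± 1.11% for MYL6, so the size of these shares depends on the length used while their direction did not. MYL11 made up 41.5 ± 1.05% of the regulatory chains in control and 27.9 ± 1.73% in shPROX1 by exon length, and 37.8 ± 1.25% and 25.1 ± 1.76% by the longest coding transcript. MYL9 stayed a minor chain at 1.96 ± 0.608% and 4.04 ± 0.327% by exon length. The summed regulatory chains were 225 ± 9.55 CPM per kb in control and 188 ± 5.10 in shPROX1, with no overlap. The summed essential chains were 294 ± 20.9 and 271 ± 7.70 CPM per kb, with overlap, and by the longest coding transcript the order turned, with 697 ± 54.8 in control and 724 ± 25.8 in shPROX1, also with overlap. These shares are descriptions with no test.

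**Figure D3:**
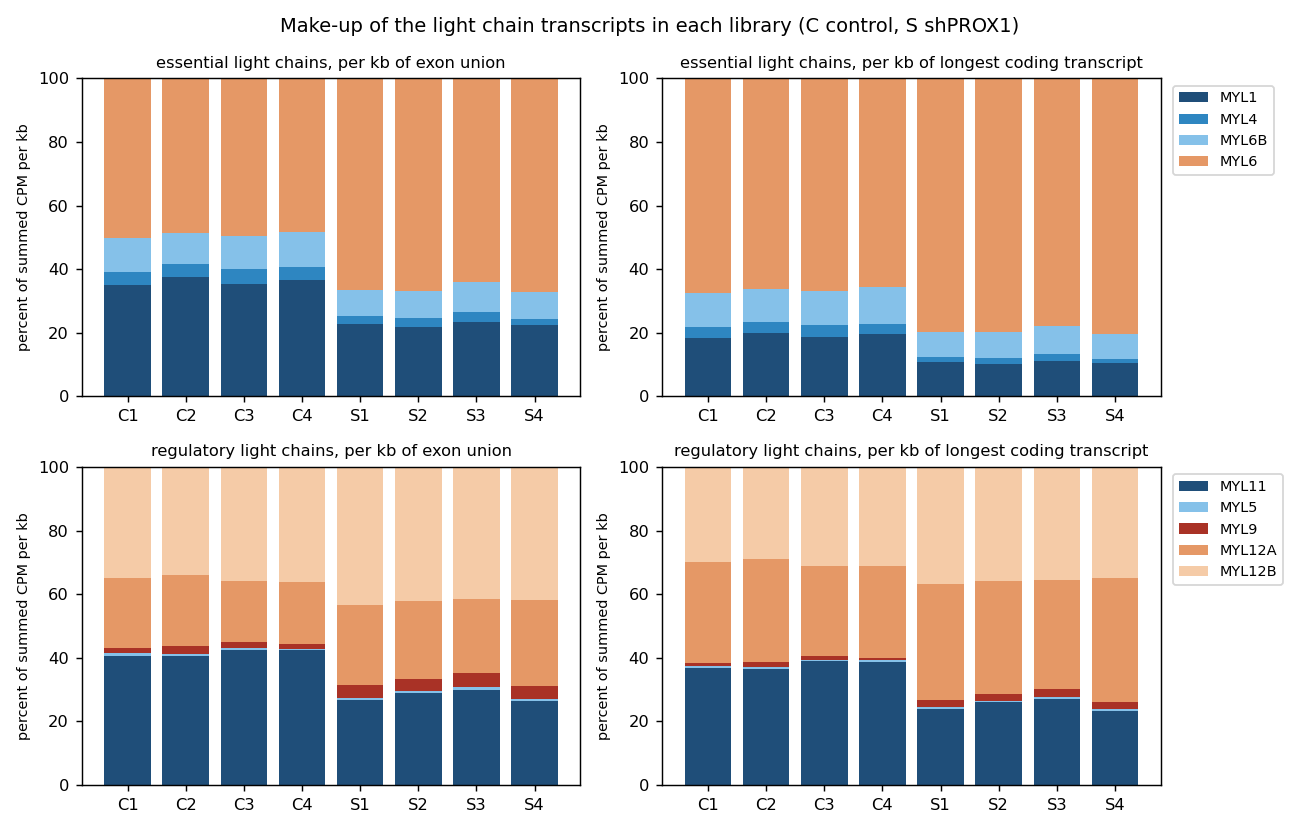
Share of each gene (vertical axis, percent) in the summed CPM per kb of its light chain class, by library (C1 to C4 control, S1 to S4 shPROX1), with length taken as merged exons (left) or the longest coding transcript (right). The dark blue MYL1 and MYL11 segments are smaller in all 4 shPROX1 libraries than in any control library under both lengths.

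The heavy chains that carry these light chains were compared by the same fit. Of 10 sarcomeric heavy chain genes 6 were tested, and 1 rose and 4 fell, 83.3% called against 35.2% over all tested genes. MYH3, which encodes the embryonic form, was at 156 ± 12.1 CPM in control and fell to 80.6 ± 2.62 CPM (log2 change -0.94 ± 0.06), and MYH8, the perinatal form, fell too (-1.22 ± 0.19). MYH15 rose (2.12 ± 0.12), and MYH2 (-0.10 ± 0.26) did not pass. MYL1 counts per 100 MYH3 counts were 91.0 ± 6.24 in control and 102 ± 4.77 in shPROX1, with overlapping libraries. Of 4 non-muscle and smooth muscle heavy chain genes 3 were tested, and 100% of these were called, against 35.2% over all tested genes. MYH9 rose (0.18 ± 0.05) although its libraries overlapped, while MYH10 (-0.35 ± 0.05) and MYH14 (-0.80 ± 0.07) fell. MYL12B counts per 100 MYH9 counts were 51.2 ± 2.92 in control and 46.2 ± 4.11 in shPROX1, with overlap.

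Genes that act on the regulatory light chain or encode its partners were taken from lists, of which those described here are the heavy chains, myosin phosphatase, other kinases with MYLIP, and SRF with its coactivators. Over all the lists of partners and regulators, 35 of 52 genes were tested, and 10 rose and 10 fell, 57.1% against 35.2% over all tested genes. Of 7 myosin phosphatase genes 5 were tested and 2 rose, which is 40% called, near the 35.2% over all tested genes. These were the targeting subunit PPP1R12A (0.15 ± 0.05) and the inhibitor PPP1R14B (0.16 ± 0.05). The catalytic subunit PPP1CB (0.11 ± 0.06) did not pass. PPP1R12A lost its call without shPROX1 replicate 1 (edgeR adjusted p = 0.0669) and PPP1R14B without control replicate 2 (edgeR adjusted p = 0.0611), while PPP1CB gained it without that control (edgeR adjusted p = 0.00511).

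Among 6 tested of 8 genes for other kinases and MYLIP, 1 rose and 2 fell, 50% called against 35.2% over all tested genes. MYLIP, a ubiquitin ligase named for its binding to the regulatory light chain, fell from 13.4 ± 1.68 to 7.33 ± 1.08 CPM (log2 change -0.84 ± 0.16). The death-associated kinase DAPK1 (-0.41 ± 0.06) fell, CDC42BPA (0.16 ± 0.06, edgeR adjusted p = 0.0348) rose, and CDC42BPB (-0.08 ± 0.06) did not pass. CDC42BPA lost its call without any of 5 libraries (control replicates 1 and 3 and shPROX1 replicates 1, 3 and 4, edgeR adjusted p = 0.0552 to 0.108), with library totals alone (edgeR adjusted p = 0.0751), with no filter on low counts (edgeR adjusted p = 0.0573) and by DESeq2 (adjusted p = 0.0859). SRF, the factor that binds CArG boxes, rose (0.57 ± 0.08), its coactivator MRTFA (0.11 ± 0.11) did not pass, and MYOCD had 0 counts.

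**Figure D4:**
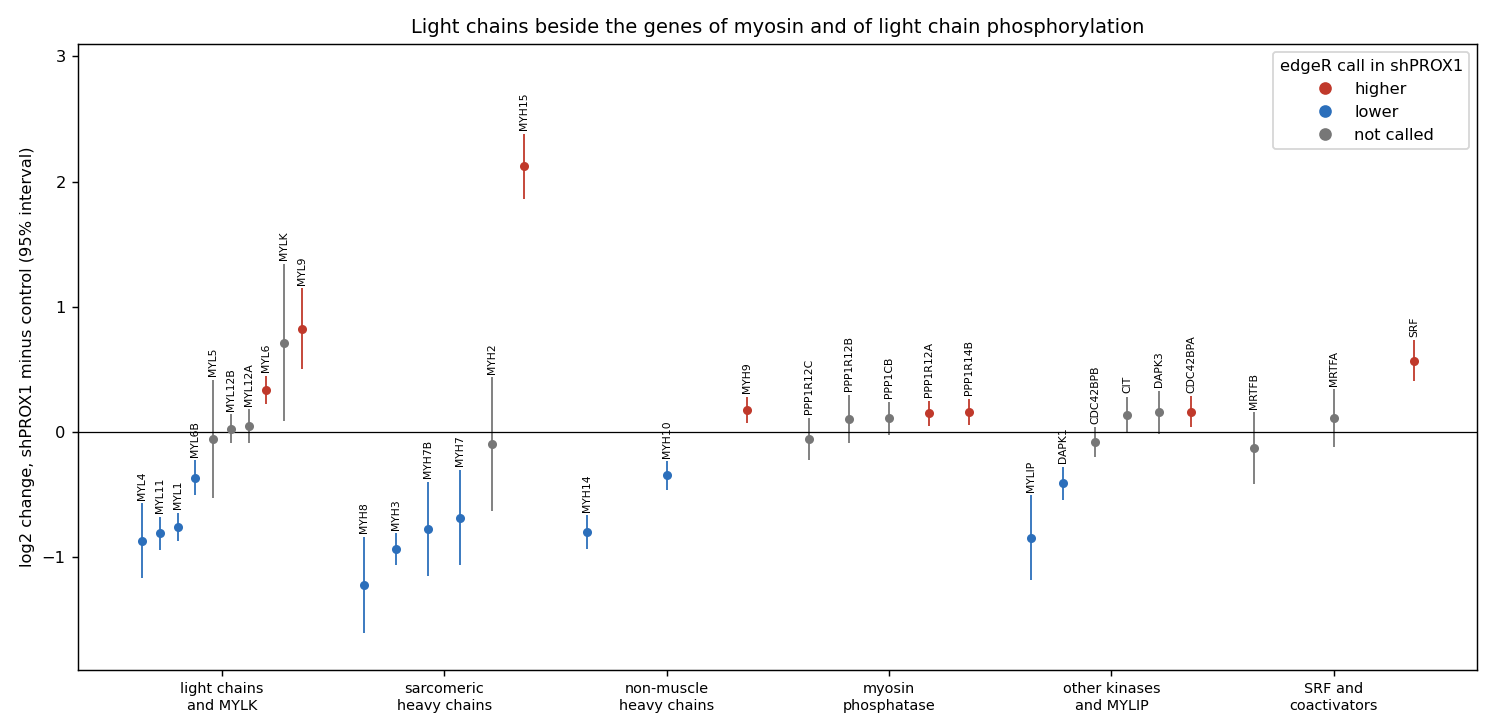
Log2 change, shPROX1 minus control (vertical axis), with its 95% interval, for every tested gene of the light chain list and of 5 lists of partner and regulator genes, coloured by call. MYH15 at 2.12 lies highest in its list, and MYLIP at -0.84 lowest in its list.

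The genes whose log2 CPM followed a light chain most closely over the 8 libraries were sought among 9473 other protein-coding genes of at least 10 CPM. For MYL1 these were HMGCS1 (Pearson r 0.997), ZNF627 (0.997), UBE2Q1 (0.996), TPM3 (0.996) and PARP1 (0.995), with log2 changes from -1.18 in HMGCS1 to -0.21 in PARP1. For MYL9 they were PINX1 (0.979), PKD1 (0.969), SLC25A37 (0.968), KLHL2 (0.968) and KLHL15 (0.964), and for MYLK they were LSM14A (0.960), TMEM167B (0.952), VANGL1 (0.951), LRRC47 (0.945) and OLFML3 (0.943). The libraries share the group difference, so a gene that differs clearly between the groups can score high. For deviations from group means, r was 0.584 to 0.896 for the MYL1 genes, 0.869 to 0.924 for MYL9 and 0.888 to 0.940 for MYLK. All were picked as the highest of 9473 genes over 8 libraries, and MYLK had only 6 to 16 counts a library. LSM14A, with a log2 change of 0.06, followed MYLK chiefly within the groups (r 0.918 for deviations from group means). These are descriptions over 8 libraries with no test.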

How the data were processed

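Total RNA of RD cells was sequenced in 8 libraries with a kit that keeps strand, per the labels' protocols. The authors deposited raw counts per gene, 1 file per library, without normalization. FastQC, HISAT2, HTSeq, DESeq2 and the build GRCh38 (hg38) are named, per the submitters' processing notes; versions, annotation and strand setting are not given in the sources used here. All 58302 rows name a gene.

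Groups and replicate numbers came from the labels. Symbols were matched for 57532 identifiers; coordinates (1-based), lengths and transcripts are from GENCODE 29, promoters from RefSeq (GRCh38.p14). CPM used library totals; edgeR 4.0.16 (R 4.3.3) used TMM factors, filterByExpr and group as the only term. SE is the log2 change over the square root of F. Alternatives used DESeq2 1.42.0 and limma 3.58.1. The pipeline was tested on simulated data. No 2 libraries were copies of the same counts, by chi-square per degree of freedom over the 12 within-group pairs. It ran from 2.39 to 6.34 over control pairs and from 1.19 to 2.16 over shPROX1 pairs, where counting error alone gives about 1. This check cannot tell separate cultures from repeated libraries of the same RNA. The replicate numbers did not pair the samples (see the closing section).

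Members and lists were chosen with earlier results of these data known. Named genes were the 10 members, and per list up to 3 called genes with the largest change and the most abundant uncalled gene. For MYL1, MYL9 and MYLK, the 5 genes of highest correlation were named. SMARCC2, markers, antisense genes and pseudogenes were added after their values were seen, as were list genes whose call changed when a library was left out. Some list genes are not reported here.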

Additional observations from a re-analysis of the deposited data

Results flagged for a closer look

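In each group of 4 libraries, a value was taken as apart where its gap to the nearest other library was a larger part of the group's range than Dixon's 95% critical value. This held in 5 of 82 groups examined, and chance alone gives about 1 in 20. MYLK in shPROX1 replicate 2 was at 2.20 CPM, against 3.49 to 3.74 CPM in the other shPROX1 libraries. CNN1 in shPROX1 replicate 1 was at 1.86 CPM, against 3.20 to 3.43 CPM. ARHGEF2 in shPROX1 replicate 4 was at 208 CPM, against 196.9 to 197.5 CPM. DAPK1 in control replicate 4 was at 98.2 CPM, against 93.2 to 93.5 CPM. CDC42BPA in control replicate 1 was at 81.7 CPM, against 89.5 to 90.2 CPM.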

How the results depend on the processing

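The 4 falls and 2 rises kept their direction and their call under 18 of 19 alternatives, the exception being the test against a 1.5-fold change, in which MYL4, MYL6, MYL6B and MYL9 were no longer called. That test called 0 of the genes higher, 2 lower (MYL1 and MYL11), 4 of the pathway genes in place of 20, and 369 genes overall in place of 4364. Leaving out each library gave 2 to 3 of the genes higher, 4 to 4 lower, 16 to 20 pathway genes and 3788 to 4292 genes overall. The sign of 2 small differences turned: MYL5 to 0.18 without control replicate 1 and 0.045 without shPROX1 replicate 2 (range -0.19 to 0.18 over libraries left out), and MYL12B to -0.0089 without control replicate 2 and -0.0027 without shPROX1 replicate 1 (range -0.0089 to 0.056). With the replicate number as a block 4187 genes were called, 2 of the light chain genes higher and 4 lower; same-numbered samples did not deviate together (correlations -0.05 to 0.05), and 1 of 4 correlated best with its own number. Per length, 9 of 10 levels moved by more than 1 SD with the longest coding transcript. At these depths genes near 3 CPM, such as MYLK, are measured with an interval of more than 1 log2 unit, for counting error and spread together.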
